A study of Mus musculus and Canis lupus familiaris and Equus caballus with 9 samples.

Results

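Close NRSF peaks are peaks, that is regions called as bound, that lie next to another peak of the same list. Whether neighbouring peaks are separate binding regions or parts of a broader one was not tested. On the human autosomes other than chromosome 19, a peak was counted as close when its midpoint lay within 2 kb of the midpoint of another human peak. Of the 4873 peaks on these 21 autosomes, 1154 were close, out of 5260 peaks in the human list and 12075 in the 4 lists of the series. The members were chosen by the distance between peak midpoints, so distances, group sizes and shares of close peaks are given as a description, with no test.

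NRSF, also named REST, is a zinc-finger protein that binds an element called NRSE or RE1. In most cells outside the nervous system it recruits corepressors that keep neuronal genes silent. The element is made of left and right motif arms. The canonical form has them at a fixed spacing, and other bound forms have only 1 arm or a different spacing. The whole element is far shorter than a ChIP-seq peak, so both arms fit within a single peak.

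The series measured NRSF by chromatin immunoprecipitation and sequencing in mouse RAW264.7 macrophages, a BALB/c line, in the dog myelomonocytic leukaemia line ML2 and in the horse skin fibroblast line E.Derm (NBL-6). Each line had 2 immunoprecipitated samples, made with the monoclonal antibody 12C11-1B11, and 1 input DNA sample, which makes 9 samples. RAW264.7 and ML2 cells were at passages 13 to 15 and E.Derm cells at passage 10, and the labels name no treatment. None of the 9 samples is human, and the sources used here name no cells for the human peaks. Each list gives positions only, with every peak 400 bp wide, so there is no height, p-value, read depth or replicate error for any peak. Human positions are on hg19, and whether they count from 0 or 1 is not stated. No human gene annotation or genome was used here, so genes and sequences at these peaks are not given.

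The 1154 close peaks were 23.7% of the peaks on the 21 autosomes (exact 95% interval 22.5 to 24.9%, which covers counting error only and treats neighbouring peaks as independent). They covered 462 kb and fell into 515 groups, a group being a run of peaks in which each consecutive distance was at most 2 kb. Of these groups, 410 held 2 peaks, 90 held 3 peaks, 13 held 4 peaks and 2 held 6 peaks. Pairs therefore made up 79.6% of the groups and held 71.1% of the close peaks. The 105 groups of 3 or more held 334 peaks, or 28.9% of the close peaks. With each group counted once, 515 of 4234 separate places (12.2%) carried more than 1 peak.

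The 639 distances within groups were concentrated at the short end. The shortest was 455 bp, which leaves 55 bp between the facing edges of the peaks. The median was 720 bp, the middle 50% of the distances ran from 565 to 978 bp, and the longest was 1995 bp. Up to 1 kb there were 485 distances (75.9%), against 154 between 1 and 2 kb. The bin from 500 to 600 bp alone held 160 distances (25.0%), compared with 90 in the bin above. The bin below it held 43, but no distance was under 455 bp. That bin was therefore only partly occupied, and its count cannot be set against that of a full bin. The most frequent single distance was 550 bp, found 19 times. In 375 of the 515 groups (72.8%) every distance was at most 1 kb.

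**Figure D1:**
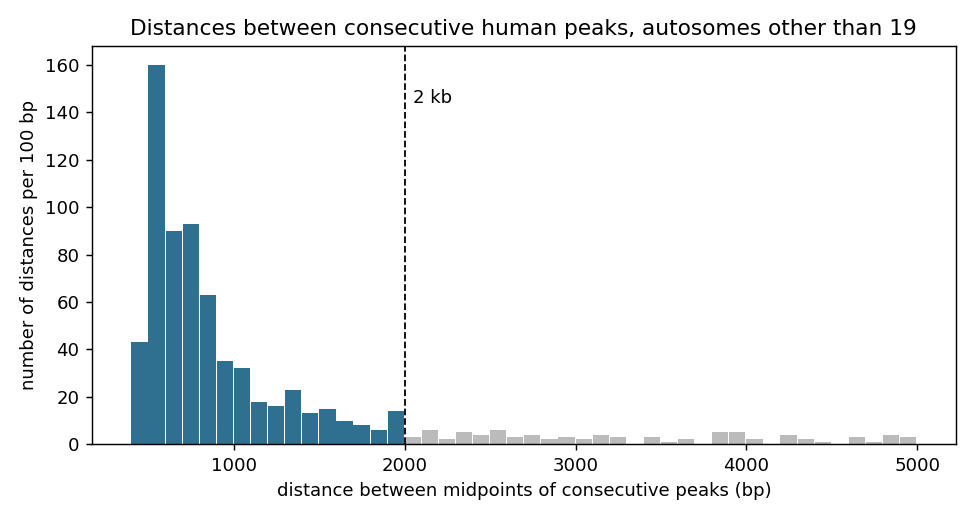
Number of consecutive distances between peak midpoints (vertical axis, per 100 bp) against the distance in bp, for the human autosomes other than 19. Blue bars lie within the 2 kb that defined close peaks, grey bars beyond it, and the highest bar, from 500 to 600 bp, holds 160 distances.

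The limit of 2 kb fell in the sparse tail of the distances. From 1900 to 2000 bp there were 14 distances and from 2000 to 2100 bp there were 3. The bins on either side of these, from 1800 to 1900 bp and from 2100 to 2200 bp, held 6 each. The pairs just inside the limit were chr4:119545420-119547815, with 1995 bp between its midpoints, and chr1:11111875-11114265 and chr16:89990735-89993125, each with 1990 bp. The nearest distances outside it were 2015 bp on chromosome 16, between the peaks starting at 56677755 and 56679770, 2075 bp on chromosome 20 and 2080 bp on chromosome 1. At the other end, the closest pairs were chr7:150680525-150681380 and chr20:25061620-25062475, with 455 bp. Behind them 5 pairs were tied at 460 bp, of which chr1:33351665-33352525 came first by position. Beyond the limit, only 64 distances lay between 2 and 4 kb, fewer than the 90 in the single bin from 600 to 700 bp.

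The largest groups were 2 runs of 6 peaks. The first, chr16:222355-227285, spanned 4930 bp with successive distances of 720, 1210, 470, 1370 and 760 bp. Short and long distances alternated in it, and the nearest other peak lay 2.38 kb away, just past the limit. The second, chr15:89902090-89908395, spanned 6305 bp, the longest span of any group. Its distances were 1935, 875, 985, 485 and 1625 bp, so that 4 central peaks were flanked by 1 more distant peak on either side. Its nearest outside peak lay 51.6 kb away.

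Among the 13 groups of 4 peaks, spans ran from 2445 to 4880 bp with a median of 3415 bp. The most compact was chr1:26796780-26799225, with distances of 750, 565 and 730 bp, followed by chr20:44858075-44860535, with 870, 650 and 540 bp. In chr17:27331105-27333835 the distances were 595, 1155 and 580 bp, which gives a pair on either side of a wider gap. A wider gap in the middle was also present in chr4:180016365-180019305 (625, 1100 and 815 bp) and chr20:44655345-44658415 (540, 1300 and 830 bp). The 2 groups on chromosome 20 started 203 kb apart, and each had other peaks within 20 kb, at 19.9 and 10.8 kb.

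In other groups of 4 the widest gap lay at one end. Among them were chr9:34982385-34985725, with 1675, 660 and 605 bp, chr9:43136010-43139425, with 1565, 860 and 590 bp, and chr2:95424985-95428705, with 640, 690 and 1990 bp. In chr21:9714565-9718085 the first distance was 455 bp, the shortest found, followed by 1665 and 1000 bp, so its widest gap lay in the middle. Its nearest other peak lay 5091 kb away, the longest such distance among the 15 groups of 4 or 6. No genome was used here, so how much of that stretch could hold a peak is not known. The distances in chr10:73554115-73557900 were 860, 1160 and 1365 bp, with the widest gap last. In chr11:66186155-66190245 they were 970, 1955 and 765 bp, with the widest gap in the middle. In chr5:175296245-175300425 they were 1810, 665 and 1305 bp, with the widest gap first. The third group of chromosome 9, chr9:139092305-139097185, with 1260, 1590 and 1630 bp, had no distance under 1 kb.

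**Figure D2:**
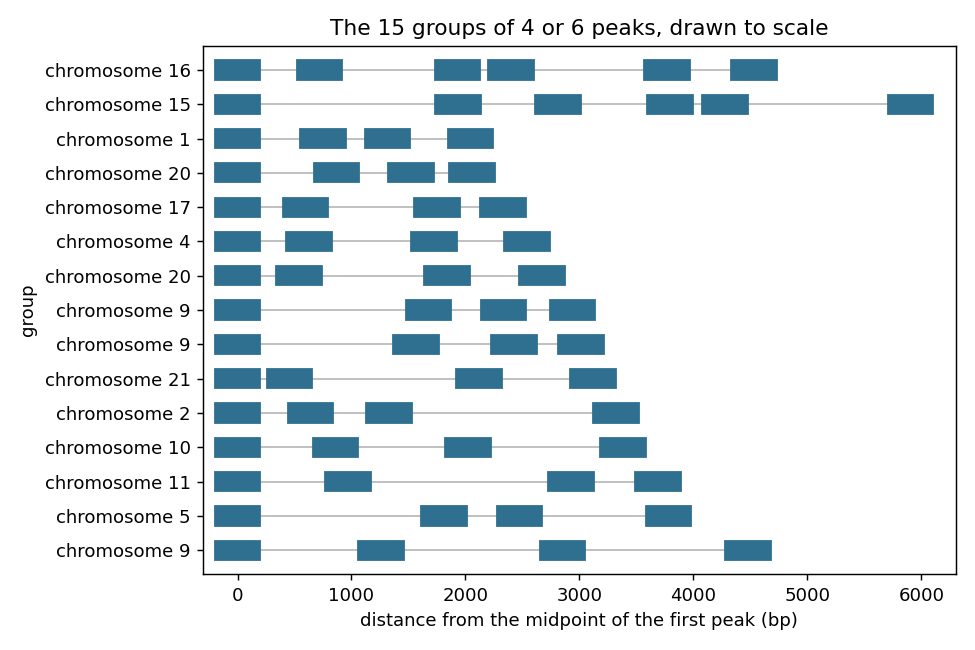
The 15 groups of 4 or 6 peaks, drawn to scale and labelled by chromosome, with the distance from the midpoint of the first peak in bp on the horizontal axis. Each box is a peak 400 bp wide, and the 6-peak groups on chromosomes 16 and 15, at the top, span 4930 and 6305 bp.

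In the 90 groups of 3 peaks the shorter of the 2 distances had a median of 625 bp and the longer a median of 955 bp. The 2 distances were within 50 bp of each other in 23 groups (25.6%), and equal in 2. In 50 groups both were at most 1 kb. On the 9 autosomes whose largest group had 3 peaks, the most compact was chr8:80521600-80523055, with 550 and 505 bp, and chr12:65219045-65220505 was close to it with 555 and 505 bp. The groups chr6:33779835-33781405 (620 and 550 bp), chr3:42340850-42342425 (625 and 550 bp), chr22:32502310-32503835 (625 and 500 bp) and chr7:30710850-30712525 (615 and 660 bp) also had both distances between 500 and 660 bp. These were named because they were the shortest of their chromosome. The other 3 were wider, namely chr18:46131795-46133895 with 860 and 840 bp, chr13:53420255-53422065 with 850 and 560 bp, and chr14:103995395-103997645 with 1350 and 500 bp.

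The median distance was 700 bp over the 410 pairs and 770 bp over the 229 distances in groups of 3 or more. In 39 of the 105 groups of 3 or more, the first and last midpoints were more than 2 kb apart, so these groups were held together through the peaks between. No arrangement was common to many groups: of 4084 comparisons between groups of 3 or more with equal numbers of peaks, 9 had the same distances to within 10 bp, in either direction.

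Close peaks were found on each of the 21 autosomes, and each of the 21 also had a group of 3 or more. Chromosome 1 had the most, with 137 close peaks in 63 groups, and chromosome 21 the fewest, with 13 in 5 groups. As a share of the peaks of a chromosome, chromosome 20 stood highest with 69 of 214 (32.2%, exact 95% interval 26.0 to 39.0%), followed by chromosome 9 with 85 of 279 (30.5%, 25.1 to 36.2%). Chromosome 13 stood lowest with 15 of 113 (13.3%, 7.62 to 20.9%), followed by chromosome 4 with 25 of 179 (14.0%, 9.25 to 19.9%). The intervals of 14 autosomes held the pooled share of 23.7%. Those of chromosomes 9 and 20 lay above it and those of chromosomes 3, 4, 7, 13 and 14 below it. Close peaks come in groups, however, with 85 in 35 groups on chromosome 9 and 69 in 30 groups on chromosome 20. Intervals that count each peak as independent are therefore too narrow to set a chromosome apart from the pooled share. Neighbours in this order overlapped widely, and chromosome 21, with 27.7% of 47 peaks, had an interval from 15.6 to 42.6%.

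**Figure D3:**
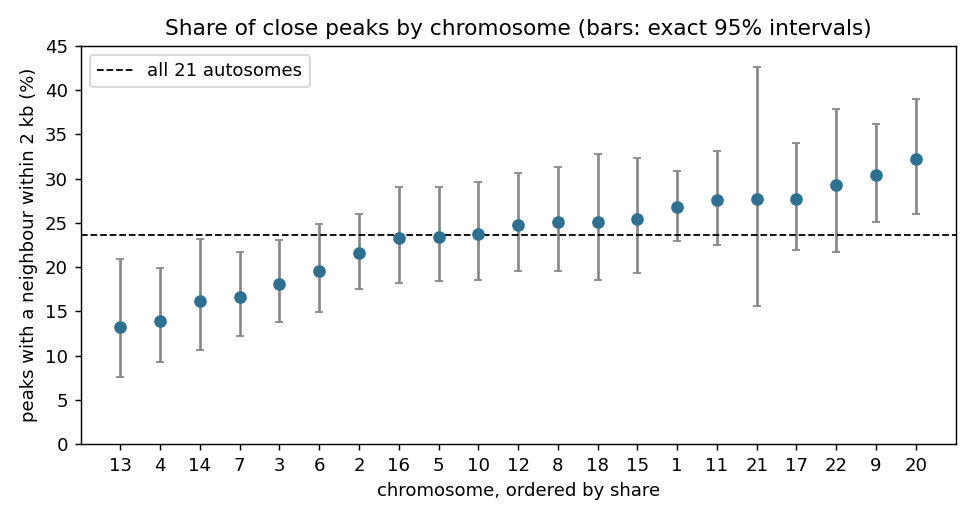
Share of peaks with a neighbour within 2 kb (vertical axis, %) on each autosome other than 19, ordered by share, with exact 95% intervals as bars and the share over all 21 autosomes as a dashed line. Chromosome 13 is lowest at 13.3% and chromosome 20 highest at 32.2%.

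In sets of 7 autosomes ordered by the number of separate places per Mb, the share of close peaks was larger where places were denser. Places per Mb, from the first to the last peak of a chromosome and with each group counted once, ranged from 0.867 on chromosome 4 to 3.18 on chromosome 22. The 7 autosomes with the fewest places per Mb (4, 21, 13, 5, 3, 8 and 6) had 19.9% close peaks together. The middle 7 had 22.9%, and the 7 with the most (1, 11, 15, 17, 16, 20 and 22) had 27.2%. Single chromosomes departed from that order: chromosome 9 had 30.5% at 1.66 places per Mb, and chromosome 16 had 23.3% at 2.41. Chromosome 21 had 27.7% at 1.04 places per Mb. At the finer scale of 1 Mb bins the share was 23.7% both in bins with 10 or more places and in the others. Of the 15 groups of 4 or 6, 3 were on chromosome 9, which held 35 of all 515 groups, and 2 on chromosome 20, which held 30. On 9 autosomes there were none, but 15 groups cannot reach all 21 autosomes, and their spread was not tested. The median distance within groups ran from 628 bp on chromosome 12 to 905 bp on chromosome 13, where it rested on 8 distances.

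Groups of close peaks lay nearer to further peaks than single peaks did. The nearest peak outside a group lay at a median of 83.4 kb for the 515 groups and 140 kb for the 3719 single peaks. Another peak lay within 100 kb of 284 groups (55.1%, exact 95% interval 50.7 to 59.5%) and of 1582 single peaks (42.5%, 40.9 to 44.1%). Within 10 kb the numbers were 58 groups (11.3%, 8.66 to 14.3%) and 256 single peaks (6.88%, 6.09 to 7.75%). Within chromosomes, the median was lower for groups than for single peaks on 15 of the 21 autosomes. On chromosome 20 it was 16.6 kb against 85.9 kb, and on chromosome 2 the order was the opposite, with 226 against 180 kb. Groups of 3 had a median of 68.2 kb and groups of 2 a median of 87.6 kb. These differences are a description, since regions of 1 list are not replicates.

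**Figure D4:**
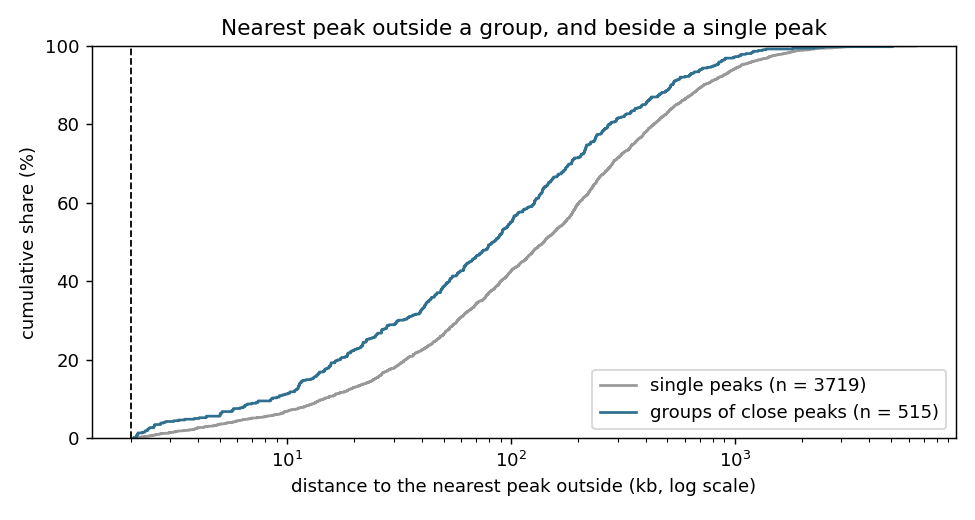
Cumulative share (vertical axis, %) of the 515 groups and the 3719 single peaks by the distance to the nearest peak outside them (horizontal axis, kb, log scale). The dashed line marks 2 kb, below which the definition of a group leaves no value, and the medians are 83.4 kb for groups and 140 kb for single peaks.

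The shares of close peaks near the ends of the covered chromosomes and further inside lay within each other's intervals. Within 5 Mb of the first or last peak of a chromosome, 165 of 692 peaks were close (23.8%, exact 95% interval 20.7 to 27.2%), against 989 of 4181 further inside (23.7%, 22.4 to 25.0%). In the 30 bins of 1 Mb that held 10 or more peaks, 160 of 367 peaks were close (43.6%), against 22.1% in other bins. A group adds its own peaks to the count of its bin. When each group counted once, 14 bins reached 10 places. In them 42 of 177 peaks were close (23.7%, 17.7 to 30.7%), against 1112 of 4696 in other bins (23.7%, 22.5 to 24.9%). The stretch of 1 Mb with the most groups was chr1:11111875-11921095, with 6 groups and 14 peaks, chosen after its value was seen.

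Close peaks on chromosome 19 and in the other species give the setting for these values. On chromosome 19, 97 of 274 peaks were close (35.4%, exact 95% interval 29.7 to 41.4%), and the median distance within groups was 773 bp. In the mouse list 109 of 2357 peaks were close (4.62%, 3.81 to 5.55%), in the dog list 155 of 2273 (6.82%, 5.82 to 7.93%) and in the horse list 144 of 2185 (6.59%, 5.59 to 7.71%). Their median distances were 780, 900 and 850 bp, and their shortest distances 455, 460 and 470 bp. Distances up to 1 kb made up 67.8% of those within groups in mouse, 59.6% in dog and 64.0% in horse. On the human autosomes they made up 75.9% and on chromosome 19 72.2%. Groups of 3 or more were 20.4% of the groups on the human autosomes and 23.3% of the 43 groups on chromosome 19. They were 14.0% of 50 groups in mouse, 18.2% of 66 in dog and 7.25% of 69 in horse. The dog list held the largest group of the 4 lists, with 7 peaks. With 1 list per species, a human list of more than 2 times the length of any other and no threshold that could be set equal, these differences were not tested, and species, cells and processing cannot be told apart.

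The human autosomes had the highest share of distances up to 2 kb next to the lists of the other species, but not of those from 2 to 10 kb. Of the 4852 consecutive distances on the human autosomes, 639 (13.2%, exact 95% interval 12.2 to 14.2%) were at most 2 kb, compared with 2.53% for mouse, 3.98% for dog and 3.48% for horse. Distances above 2 and up to 10 kb made up 3.36% (2.87 to 3.91%) on the human autosomes. The same range held 3.34% (2.65 to 4.15%) in mouse, 4.74% (3.90 to 5.71%) in dog and 6.08% (5.11 to 7.18%) in horse. Distances up to 2 kb were thus 3.92 times as many as those from 2 to 10 kb on the human autosomes. In the whole human list, 3.67% of distances lay above 2 and up to 10 kb, and the ratio was 3.64. That ratio was 0.756 in mouse, 0.84 in dog and 0.573 in horse. On chromosome 19 both ranges were more filled than on the other autosomes, with 19.8% and 9.52%, a ratio of 2.08.

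**Figure D5:**
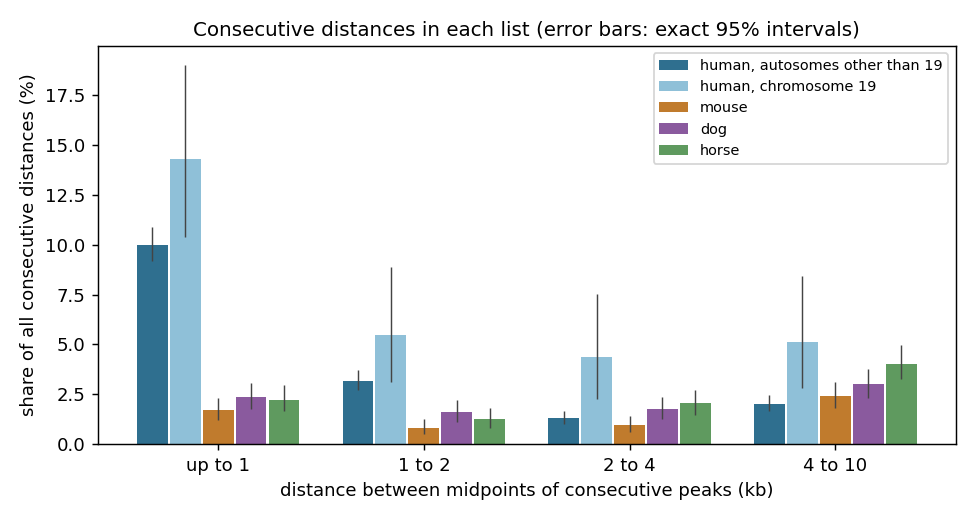
Share of all consecutive peak distances (vertical axis, %) in 4 ranges of distance (horizontal axis, kb) for the human autosomes other than 19, human chromosome 19 and the mouse, dog and horse lists, with exact 95% intervals as error bars. Up to 1 kb the human autosomes stand at 10.0% and the other species at 1.71 to 2.37%, whereas from 4 to 10 kb the human autosomes are lowest at 2.04%.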

How the data were processed

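The 4 peak lists used were 1 each for human, mouse, dog and horse. Their values (other) are chromosome, start and end as the authors deposited them, with no count, score or p-value. The submitters' processing notes name Bowtie 0.12.8 (an aligner) and MACS 1.4.2 (a peak caller) without roles, and list hg19 (GRCh37), mm10 (GRCm38) and CanFam3.1 as builds. For the horse build, the threshold and the joining of replicates, nothing is given in the sources used here. A list made at a lower threshold or from several samples can hold more close peaks. Midpoints were sorted by chromosome, and consecutive peaks at most 2 kb apart were joined into groups with Python 3.11.15, numpy 2.4.6, pandas 2.3.3 and scipy 1.17.1. The grouping was tested on simulated data. Intervals are exact (Clopper-Pearson) at 95% and cover counting error only. Read depth is unknown, and no test was made.

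Regions were named by rule: at most 12 groups of the 2 largest sizes, the 3 pairs with the shortest and the 3 with the longest distance, the 3 distances just above 2 kb, and the largest group of each autosome. The chromosome 9 group at 139092305 was added, after its values were seen, to complete the groups of 4. The definition and the rules were chosen with earlier results of these data known. Alternatives were 1 kb, 5 kb, distance between edges, other chromosomes, leaving out dense bins or single chromosomes, and joining nearly touching peaks.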

Additional observations from a re-analysis of the deposited data

How the results depend on the processing

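Leaving out each autosome in turn, which removes few peaks, gave shares from 23.3 to 24.1%. Of the 36 values under the other alternatives, 28 stayed within the exact 95% interval of the main value or, for counts, within 1.5 times of it. The share of close peaks, 23.7%, left its interval in 4 of 7 of these: it was 18.7% with 1 kb, 26.4% with 5 kb, 22.1% without the 1 Mb bins of 10 or more peaks and 22.0% with peaks joined whose edges lay within 100 bp. The number of close peaks with 1 kb, 911, counted as unchanged although its share did not, because counts had the wider allowance. The median distance, 720 bp, was 630 bp with 1 kb, 765 bp with 5 kb and 760 bp with joined peaks. Groups of 3 or more numbered 56 with 1 kb, against 105. A shorter or longer reach admits fewer or more distances by construction. Chromosomes 20 and 13 had the highest and lowest share with 1 and 5 kb as well. A stricter threshold could not be run, since peaks carry no score. No paired analysis was possible because the lists hold no value per replicate.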

Other observations

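Neighbouring pairs of equal spacing were looked for after the data were seen. Of 52 comparisons between groups of 2 peaks within 200 kb of each other, 2 had distances equal to within 5 bp (3.85%, exact 95% interval 0.469 to 13.2%), compared with 1938 of 83793 other comparisons (2.31%). The interval holds the share of the other comparisons. Groups of 3 or more were not part of this search, so the matching groups of 3 on chromosome 2 lay outside it. Of the 2 cases among groups of 2, the first was chr7:65019415-65020350 and chr7:65112110-65113045, both with 535 bp between midpoints and 92.7 kb apart. The other was chr15:43884765-43886195 and chr15:43984595-43986030, with 1030 and 1035 bp and 99.8 kb apart. Sequence was not used here, so whether the regions of either case resemble each other was not tested.

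All starts in the 4 lists are multiples of 5, and most end in 5. On the human autosomes other than 19, 24.8% of close peaks (286 of 1154, exact 95% interval 22.3 to 27.4%) and 19.4% of single peaks (721 of 3719, 18.1 to 20.7%) had a start ending in 0. For close and single peaks the shares were 20.2% and 19.7% in mouse, 20.6% and 17.7% in dog, and 16.7% and 17.0% in horse. On human chromosome 19 they were 24.7% of 97 close peaks (16.5 to 34.5%) and 24.3% of 177 single peaks (18.2 to 31.3%). Single peaks there stood at the level of close peaks, but their interval also holds the 19.4% of single peaks on the other autosomes. Consecutive close peaks on the human autosomes had starts with different last digits in 256 of 639 cases (40.1%). The share to be found with unrelated starts was not computed.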
